A study of Drosophila melanogaster with 36 samples.

Results

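Odorant receptor (Or) and gustatory receptor (Gr) genes were examined for binding by Hox proteins and their cofactors in Drosophila Kc167 cells. Members were all protein-coding genes whose symbol in the Ensembl BDGP6 annotation is Or or Gr followed by a digit. There were 119 such genes, 59 Or and 60 Gr, of 13945 protein-coding genes, and 1 further gene with a matching symbol was left out because it is not annotated as protein-coding. A gene was counted as having a region in a line when a region of that line's list shared at least 1 bp with the gene body or with the 2 kb on either side. The comparison genes were the 5598 other protein-coding genes with bodies of 1199 to 3519 bp, which are the 5th and 95th percentiles of the members' own lengths. The members were 1143 to 7422 bp long with a median of 1444 bp, against a median of 1983 bp for the comparison genes.

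Odorant receptors are membrane proteins that form odour-gated ion channels together with the shared co-receptor Orco, and each olfactory neuron of the antenna, maxillary palp or larval dorsal organ usually expresses very few of them. Gustatory receptors of the same superfamily detect sugars, bitter compounds, carbon dioxide and in some cases warmth or pheromones. The genes are short, dispersed over all large chromosome arms, often in small tandem clusters, and are known for expression in sensory neurons and not in blood cells. Hox proteins are homeodomain transcription factors that give segments their identity, Hth (Homothorax) is a homeodomain cofactor that acts with them and with Exd, and Gcm (Glial cells missing) is the transcription factor that directs glial and hemocyte fate.

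The study asked how Hox proteins choose their targets with and without Hth and Gcm. Kc167 is a Drosophila line of embryonic origin that resembles blood cells (hemocytes), and since the files hold region positions only, that identity could not be checked here against marker expression. Each of the 12 stable lines carried 1 plasmid in which the copper-inducible promoter of the metallothionein vector pMT-puro drove an eGFP fusion, and the parental cells and the anti-GFP antibody were common to all lines. In each line 2 biological replicates of ChIP-Seq and 1 input were sequenced, 36 libraries in all, and the deposited list joins both replicates.

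Dfd, Ubx and Abd-B were expressed as eGFP fusions alone. Hth preceded the fusion through a 2A peptide in the Dfd+Hth, Ubx+Hth and Abd-B+Hth lines, Gcm did so in Dfd+Gcm and Ubx+Gcm, and both did in Dfd+Hth+Gcm and Ubx+Hth+Gcm. In the remaining lines, Hth and Gcm were themselves tagged and no Hox protein was added. Ubx, Ubx+Hth and Hth were induced with 1 mM copper sulphate during 18 h, Abd-B with 0.5 mM during 24 h, and Dfd with 2 mM during 24 h. Abd-B+Hth, Ubx+Gcm, Ubx+Hth+Gcm and Gcm received 2.5 mM during 24 h, Dfd+Gcm 3.2 mM during 24 h, Dfd+Hth 2.66 mM during 22 h and Dfd+Hth+Gcm 3.7 mM during 22 h. Induction was set for each line and cells were sorted within a common range of GFP fluorescence, so that within most pairs of lines the cofactor and the induction cannot be told apart. The lists held between 4885 (Ubx+Hth) and 13741 (Abd-B+Hth) regions at a q value of 1e-2 and between 1832 (Ubx) and 10375 (Abd-B) at 1e-10, and no reads or scores per region, so that the depth behind a single region is unknown.

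The regions near receptor genes can be read at the level of sequence where no other gene lies close by. A region was called clear of other genes when it overlapped no body of a protein-coding gene outside the family and lay over 500 bp from every transcript start of such genes. Sequences are given as the plus strand of Release 6 (dm6), from the central 200 bp of 6 clear regions, taken among those on X, 2L, 3L and 3R in order of the number of lines that share them and then of width. They are shown as examples of clear regions. Capitals mark the Hox core TAAT on either strand (TAAT or ATTA). Gr93d, an orphan receptor, had an upstream region in all 12 lines, and the window chr3R:21849391-21849590 lies inside that of 5 of them, being the centre of the widest. The bicistronic pair Or10a and Gr10a, of which Or10a responds to methyl salicylate, had one upstream in 8 lines, 4 of which contain the window chrX:11419475-11419674. Gr28a, expressed in bitter neurons, had one downstream in 8 lines, all with the window chr2L:7452142-7452341. Or30a, a larval odorant receptor, had one at its start in 4 lines, all with the window chr2L:9111623-9111822. Gr28b, whose products include a warmth receptor, had one upstream in 3 lines, 2 of which contain the window chr2L:7464296-7464495. Gr93a, needed for caffeine avoidance, had one upstream in 3 lines, all with the window chr3R:21831842-21832041.
Gr93d: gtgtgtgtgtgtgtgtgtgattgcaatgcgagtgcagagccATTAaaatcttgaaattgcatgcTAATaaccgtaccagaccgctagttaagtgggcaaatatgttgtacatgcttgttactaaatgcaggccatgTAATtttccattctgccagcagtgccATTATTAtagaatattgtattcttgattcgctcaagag
Or10a: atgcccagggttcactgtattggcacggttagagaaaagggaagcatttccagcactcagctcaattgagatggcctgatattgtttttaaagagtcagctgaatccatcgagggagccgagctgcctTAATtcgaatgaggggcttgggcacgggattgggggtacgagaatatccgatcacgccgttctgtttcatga
Gr28a: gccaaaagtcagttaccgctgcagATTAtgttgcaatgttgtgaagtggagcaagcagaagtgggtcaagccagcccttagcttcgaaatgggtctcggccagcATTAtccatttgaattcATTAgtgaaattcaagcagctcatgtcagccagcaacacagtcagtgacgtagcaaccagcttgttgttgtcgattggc
Or30a: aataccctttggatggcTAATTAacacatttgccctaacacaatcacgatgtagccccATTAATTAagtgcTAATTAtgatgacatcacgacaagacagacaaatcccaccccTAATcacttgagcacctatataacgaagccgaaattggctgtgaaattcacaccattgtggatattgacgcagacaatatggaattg
Gr28b: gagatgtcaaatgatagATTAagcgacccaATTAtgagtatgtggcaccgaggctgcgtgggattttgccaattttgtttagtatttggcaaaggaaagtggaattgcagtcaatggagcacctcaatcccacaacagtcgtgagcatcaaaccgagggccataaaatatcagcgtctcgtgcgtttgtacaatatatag
Gr93a: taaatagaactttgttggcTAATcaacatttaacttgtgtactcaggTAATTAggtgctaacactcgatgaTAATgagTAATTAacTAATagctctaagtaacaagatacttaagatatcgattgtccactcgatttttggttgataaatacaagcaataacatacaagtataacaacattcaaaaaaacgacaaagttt

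The TAAT core matched 5 times in the Gr93d window, 1 time in that of Or10a, 3 times in that of Gr28a, 8 times in that of Or30a, 2 times in that of Gr28b and 7 times in that of Gr93a. None of these 6 windows held a composite Hox site, searched as the octamers TGATTGAT, TGATTAAT and TGATTTAT on both strands, or the Gcm site, searched as ATACGGGC, ATACGGGT, ATGCGGGC and ATGCGGGT. On the arm that was left out of this choice, the clear stretch of Gr47b in 4 lines held neither site at its 4 region centres. That of Gr57a in 3 lines held an octamer at the centre in Dfd+Gcm and Dfd+Hth+Gcm, and a Gcm site in Dfd+Hth and Dfd+Gcm. Over the 320 regions near members in the 12 lines, the core TAAT was present in the central 200 bp of 83.8% (95% exact interval 79.2 to 87.6), against 85.9% of all 112270 regions, so that a match of the short core is the rule at any region. A match is a description of the letters and not of a bound site.

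Further windows, chosen after their sequence was seen, show the longer sites in capitals. The Gr93d stretch was centred elsewhere in the Hth line, whose window, chr3R:21848588-21848787, held 1 octamer, TGATTAAT, and lies inside the region of 11 lines, all but Ubx. Or82a, a receptor for geranyl acetate, had a region over its start in Dfd+Hth and Dfd+Hth+Gcm, and in no other line. Its centre, chr3R:4256735-4256934 on the plus strand of Release 6, held 2 overlapping octamers on the minus strand, TGATTGAT and TGATTAAT, which together span the 12 capital letters. Gr36b, an orphan gustatory receptor, had a region in its coding sequence in the Gcm line only, whose centre, chr2L:17179543-17179742, held 1 Gcm site, ATGCGGGC on the minus strand.
Gr93d, Hth centre: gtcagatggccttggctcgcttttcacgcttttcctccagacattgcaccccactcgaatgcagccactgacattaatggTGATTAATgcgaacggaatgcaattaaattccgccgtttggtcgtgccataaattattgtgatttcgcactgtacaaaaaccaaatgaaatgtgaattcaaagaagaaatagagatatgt
Or82a: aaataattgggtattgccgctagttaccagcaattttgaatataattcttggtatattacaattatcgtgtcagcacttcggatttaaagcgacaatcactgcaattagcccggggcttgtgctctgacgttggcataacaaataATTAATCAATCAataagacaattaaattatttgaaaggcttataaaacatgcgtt
Gr36b: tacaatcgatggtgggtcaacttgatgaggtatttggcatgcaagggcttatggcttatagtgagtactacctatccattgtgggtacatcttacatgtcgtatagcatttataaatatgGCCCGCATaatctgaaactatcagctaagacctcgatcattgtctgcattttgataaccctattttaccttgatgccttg

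Binding near the receptor genes was sparse. At q 1e-2, 66 of the 119 genes (55.5%, 95% exact interval 46.1 to 64.6, counting error over genes only) had a region in at least 1 of the 12 lines, against 86.1% of the comparison genes. They comprised 31 of 59 Or genes (52.5%, 39.1 to 65.7) and 35 of 60 Gr genes (58.3%, 44.9 to 70.9), with intervals that overlap. At q 1e-10, 46 members (38.7%, 29.9 to 48.0) had a region against 74.7%. The median share over the 12 lines was 18.9% for the members and 55.7% for the comparison genes, and the share of members was the lower one in 12 of 12 lines. No test was run on these shares, since the lists hold no value per replicate and genes are not replicates.

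Regions in the genes themselves were fewer. A region touched the body of 23 members (19.3%, 12.7 to 27.6) in any line, against 68.4% of the comparison genes. A region lay within 500 bp of a member's own annotated transcript start in 22 members (18.5%, 12 to 26.6), against 66.2%. Most members have no annotated 5′ UTR, and among the comparison genes without one these shares were 25.8% in the body and 25.2% at the start, against 15.9% and 17.1% of such members. Regions clear of other genes were found near 32 members (26.9%, 19.2 to 35.8), against 39.3% of the comparison genes, for which every other protein-coding gene counted as a neighbour. Of the 320 regions near members, 160 had their centre upstream of the nearest member and 134 downstream of it, 11 in coding exons, 8 in 5′ UTRs, 4 in introns, 2 in 3′ UTRs and 1 in another exon. Centres of 158 of the 320 lay within 500 bp of the transcript start of a gene outside the family, and 240 overlapped the body of such a gene. These positions were not counted over all regions or near the comparison genes, so they are not shown to be particular to the receptor genes. Their median width was 502 bp, against 569 bp for all regions of the 12 lists.

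**Figure D1:**
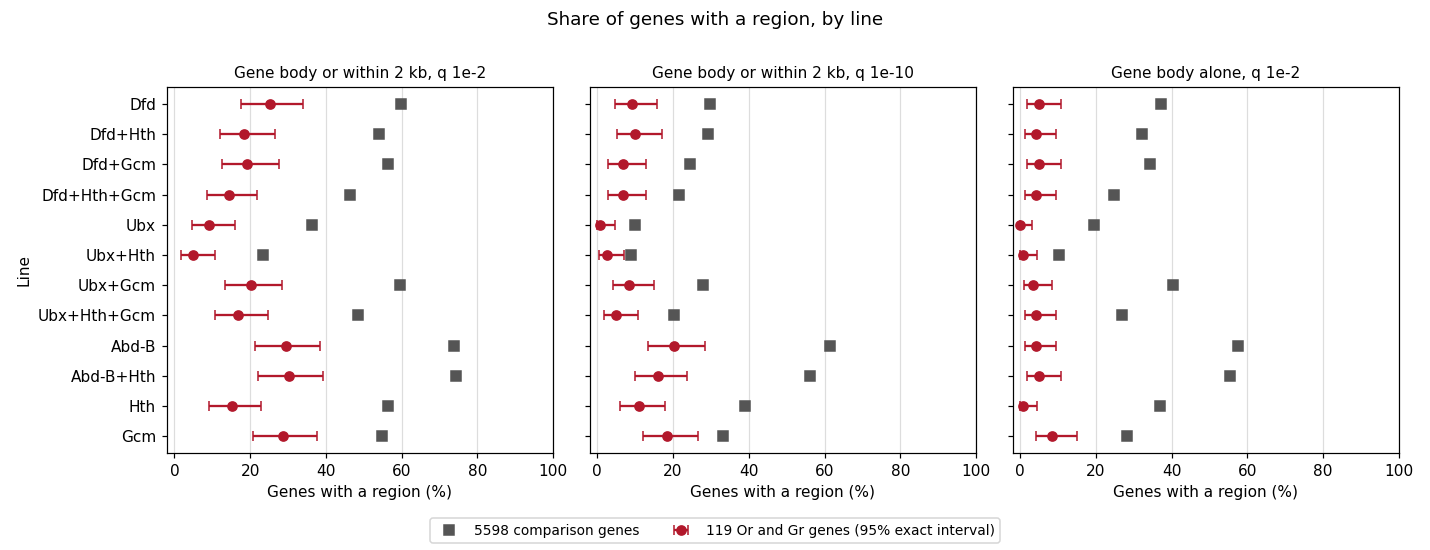
Share of genes with a region (x axis, %) in each of the 12 lines (y axis), for the body with 2 kb at q 1e-2 (left), the same at q 1e-10 (middle) and the body alone at q 1e-2 (right). Circles are the 119 Or and Gr genes with 95% exact intervals over genes, and squares are the 5598 comparison genes. In all 12 lines and all 3 panels the circle lies to the left of the square, from 5.04% against 23.5% in Ubx+Hth to 30.3% against 74.4% in Abd-B+Hth in the left panel.

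The Dfd lines had regions near 33 members in all (27.7%, against 66.1% of the comparison genes), 15 of them in each of the 4 lines (12.6% against 41.0%). In Dfd alone, 30 members (25.2%, 17.7 to 34.0) had a region against 59.7% of the comparison genes, 6 in the body against 37.2%, and 11 at q 1e-10 against 29.7%. Dfd+Hth had 22 members (18.5%) against 54.0%, 5 in the body against 32.3%, and 12 at q 1e-10 against 29.2%. Dfd+Gcm had 23 (19.3%) against 56.4%, 6 in the body against 34.2%, and 8 at q 1e-10 against 24.4%. Dfd+Hth+Gcm had 17 (14.3%) against 46.4%, 5 in the body against 24.7%, and 8 at q 1e-10 against 21.7%. The share of members was thus between 0.308 and 0.423 of that of the comparison genes in these lines.

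Among the members bound in Dfd lines, 6 had no region in any other line (5.04% of all members, against 1.66% of the comparison genes), namely Gr28b, Gr57a, Or49b, Or82a, Or1a and Or65b. Gr28b had an intronic region in Dfd, Dfd+Gcm and Dfd+Hth+Gcm and an upstream one in Dfd+Hth, Dfd+Gcm and Dfd+Hth+Gcm, and it passed q 1e-10 in Dfd+Gcm. Or49b, a receptor for phenolic odours, had a region over its 5′ UTR in Dfd, Dfd+Hth and Dfd+Gcm. This region also reached a start of Cyp9h1, with the region's centre 172 to 195 bp from it. The upstream region of Gr57a, an orphan receptor, was found in Dfd+Hth, Dfd+Gcm and Dfd+Hth+Gcm and was 413 to 929 bp wide. Or30a had the region shown above in its 4 Dfd lines, and a separate downstream region of 398 bp in Gcm. The regions of Gr28b, Gr57a, Or82a, Or65b and Or30a were clear of other genes, while those of Or49b and Or1a overlapped other genes.

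Ubx and Ubx+Hth had the fewest members. In Ubx alone 11 members (9.24%, 4.71 to 15.9) had a region against 36.2% of the comparison genes, and Ubx+Hth had 6 (5.04%, 1.87 to 10.7) against 23.5%. No member had a Ubx region in its body, which allows a share of up to 3.05%, against 19.5%, and in Ubx+Hth this was 1 member, Gr59b, against 10.4%. At q 1e-10 Ubx kept 1 member, Or88a, against 9.88%, and Ubx+Hth 3, Or88a, Gr93d and Or71a, against 8.79%. Ubx+Gcm had 24 members (20.2%, 13.4 to 28.5) against 59.6%, 4 in the body against 40.4%, and 10 at q 1e-10 against 28.0%. Ubx+Hth+Gcm had 20 (16.8%, 10.6 to 24.8) against 48.4%, 5 in the body against 27.0%, and 6 at q 1e-10 against 20.2%. The Ubx lines together reached 27 members (22.7% against 63.0%), of which Gr59b and Gr89a, a receptor of bitter neurons, had no region in other lines (1.68% of all members against 0.232%).

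At q 1e-2 within 2 kb, the Abd-B lines held the most members and the most regions. Abd-B had 35 members (29.4%, 21.4 to 38.5) against 73.9% of the comparison genes, and Abd-B+Hth 36 (30.3%, 22.2 to 39.3) against 74.4%, with 29 members in both (24.4% against 71.0%). At q 1e-10 there were 24 against 61.4% in Abd-B and 19 against 56.3% in Abd-B+Hth. In the gene body the counts were 5 against 57.5% and 6 against 55.3%, so that the body share of members was 0.0731 and 0.0911 of that of the comparison genes. The 5 members with an Abd-B region in the body were Or43a, Gr59f, Gr61a, Or71a and Gr98d. Gr61a, a sugar receptor, had a region over its start in 7 lines that also reached the start of JMJD5, with the region's centre 42 to 167 bp from it.

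The lines with a tagged cofactor and no Hox protein differed from each other. Hth had 18 members (15.1%, 9.22 to 22.8) against 56.4% of the comparison genes, 13 at q 1e-10 against 38.9%, and 1 in the body, Gr94a, against 36.9%. Gcm had 34 members (28.6%, 20.7 to 37.6) against 54.9%, 22 at q 1e-10 against 33.2%, and 10 in the body against 28.2%. The share of members relative to the comparison genes was 0.520 for Gcm, against 0.215 (Ubx+Hth) to 0.423 (Dfd) in the other lines. At q 1e-10 it was 0.556, against 0.0851 (Ubx) to 0.345 (Dfd+Hth), and for the body alone 0.298, against 0 (Ubx) to 0.170 (Dfd+Hth+Gcm). The difference between lines was not tested.

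The number of lines per gene separated a few widely bound members from the rest. No line had a region near 53 members (44.5%), against 13.9% of the comparison genes, and 26 members (21.8%) had a region in a single line, against 7.43%. A further 29 (24.4%) had one in 2 to 8 lines, against 37.3%, and 11 (9.24%) in 9 or more, against 41.4%. All 12 lines had a region near 3 members, Or71a, Or88a and Gr93d (2.52%, 0.523 to 7.19), against 14.5% of the comparison genes. The median was 1 line for the members and 7 lines for the comparison genes, and over genes with any region 3 and 8 lines.

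**Figure D2:**
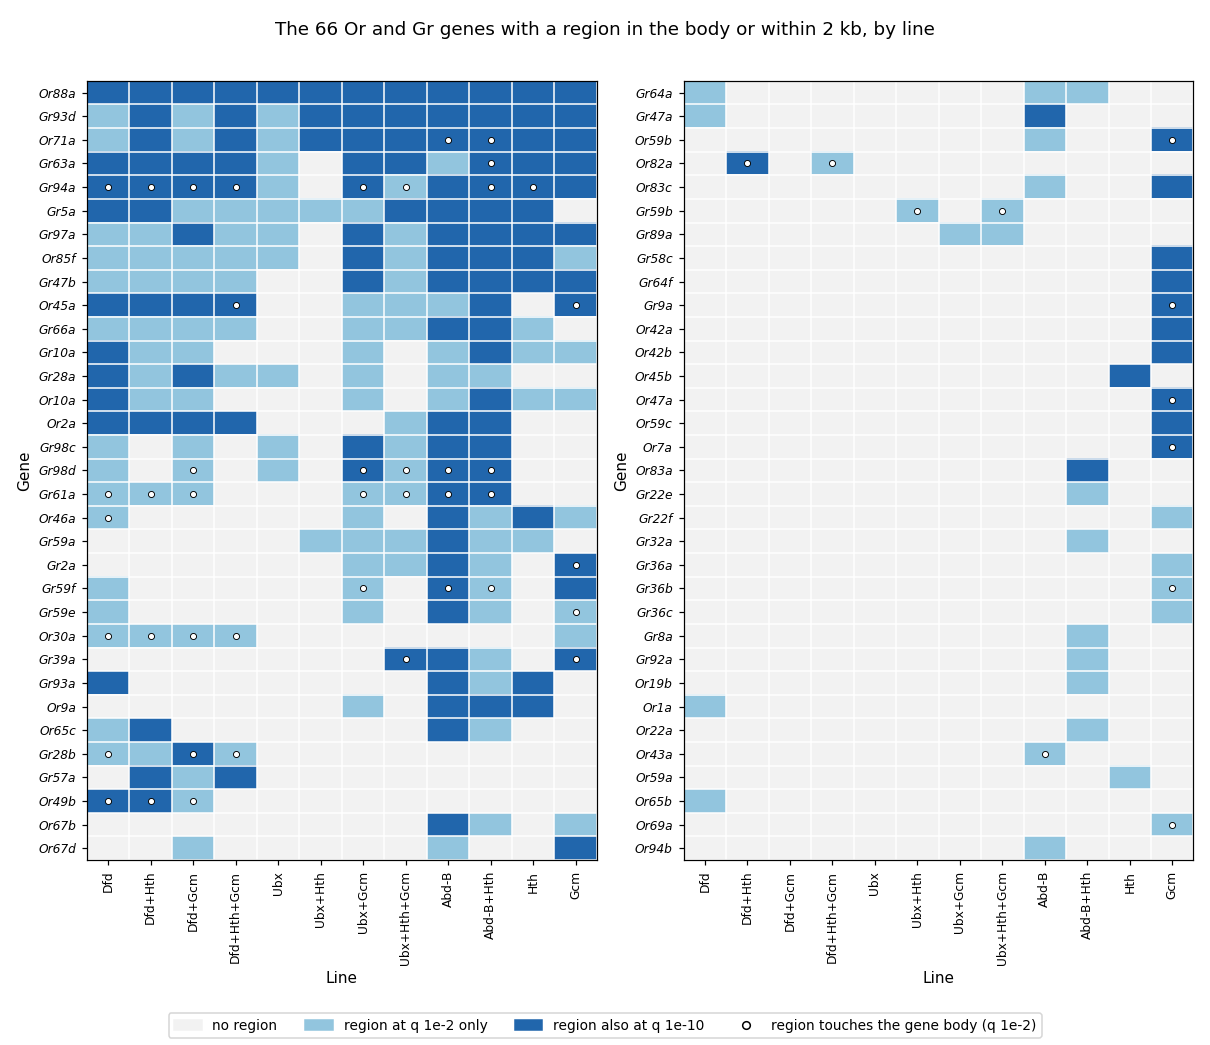
The 66 Or and Gr genes with a region in the body or within 2 kb (y axis), by line (x axis), ordered by the number of lines. Light blue is a region at q 1e-2 only, dark blue a region also at q 1e-10, and a circle a region that touches the gene body. Or88a is dark in all 12 lines, 11 genes are filled in 9 or more lines, and 13 of the 26 single-line genes are filled in Gcm.

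Of the 11 genes with a region in 9 or more lines, 8 had none that was clear of other genes. The same was not counted over the 2319 comparison genes with a region in 9 or more lines. Of all comparison genes, 39.3% had a clear region in any line. Or88a, which responds to fly-derived fatty acid esters, had an upstream region in 12 lines at both thresholds. At q 1e-2 it was 503 to 1440 bp wide, with its centre 185 to 401 bp from a start of CG12402. Or71a, a receptor of the maxillary palp for ethylphenols, lies inside Plp, which encodes a centrosomal protein, and its 12-line stretch spans chr3L:15079050-15081081 at a start of Plp. Gr94a lies inside p53, the fly homologue of the tumour suppressor gene. It had regions in 11 lines, 8 of them touching its body, and in 9 lines at q 1e-10, and all of these overlapped p53. Gr63a, which with Gr21a forms the carbon dioxide receptor, had regions in 11 lines that overlapped Fie or Lamtor4, and 9 at q 1e-10.

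The sugar receptor gene Gr5a, the trehalose receptor, had regions in 11 lines, all but Gcm, and the stretch shared by these overlapped Tre1. Gr97a had regions in 11 lines over Tsp97E and CG5521, and Or85f in 11 lines, of which those of Abd-B and Abd-B+Hth at chr3R:9397333-9398100 were clear of other genes. Gr47b had regions in 10 lines, with clear ones in Ubx+Gcm, Ubx+Hth+Gcm, Hth and Gcm. Or45a, a larval receptor, and Gr66a, the widely expressed bitter co-receptor, had regions in 9 lines. Gr93d was the exception among them, since its stretch chr3R:21848202-21850673 was clear of other genes in 12 lines and 6775 to 7605 bp, by region centre, from the nearest start, that of glec.

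By width the same genes led. The 10 widest regions near members were 1855 to 2365 bp, and the 5 widest of them were at Gr93d in Abd-B (2365 bp), Ubx+Gcm (2334 bp), Dfd+Hth (2241 bp), Ubx+Hth+Gcm (2223 bp) and Abd-B+Hth (2028 bp). In the other 7 lines the widest region in that stretch was narrower, for example 550 bp in Ubx and 613 bp in Dfd. The others of the 10 lay at Or71a in Abd-B (1922 bp), Dfd+Hth+Gcm (1866 bp) and Ubx+Hth+Gcm (1855 bp), at Or45b in Hth (1904 bp) and at Gr66a in Abd-B+Hth (1877 bp). The region of Or45b, a larval receptor, was clear of other genes and found in Hth only.

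At the stricter threshold, 9 members (7.56%) had a region in 6 or more lines, against 27.2% of the comparison genes. These were Or88a in 12 lines, Gr93d, Or71a, Gr63a and Gr94a in 9, and Gr5a, Gr97a, Or45a and Or2a in 6. Gr47b passed in 5 lines and Or85f in 4. Gr39a, Gr93a, Gr98c, Gr98d and Or9a passed in 3 lines, and 11 genes in 2 (against 12.4% of the comparison genes), namely Gr28a, Or46a, Or49b, Gr57a, Gr59f, Gr61a, Or65c, Gr66a, Gr2a, Or10a and Gr10a. Another 19 passed in 1 line, against 11.1% of the comparison genes. In Gcm there were 11 of them, Or42a, Or42b, Or47a, Gr58c, Or59b, Or59c, Gr64f, Or67d, Or83c, Or7a and Gr9a. Gcm also held 42.6% of the comparison genes with a single line at q 1e-10. Of the other 8, Gr47a, Gr59a, Gr59e and Or67b passed in Abd-B, Or83a in Abd-B+Hth, Or45b in Hth, Or82a in Dfd+Hth and Gr28b in Dfd+Gcm.

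Among the 26 members with a region in 1 line at q 1e-2, 13 were bound in Gcm. They were Gr22f, Gr36a, Gr36b, Gr36c, Or42a, Or42b, Or47a, Gr58c, Or59c, Gr64f, Or69a, Or7a and Gr9a. Gcm likewise accounted for 59.1% of the 416 comparison genes with a single line. The 3 Gr36 genes, a tandem cluster, share the 1 region of Gr36b. Or7a, Or47a, Or69a and Gr9a had the Gcm region centred in a coding exon, as Gr36b did. Abd-B+Hth held 7 single-line members, Or22a, Gr22e, Gr32a, Or83a, Gr92a, Gr8a and Or19b, against 14.9% of the single-line comparison genes. Of these Or22a detects fruit esters and Gr32a is a bitter and pheromone receptor. The remaining ones were Or65b and Or1a in Dfd, Or43a and Or94b in Abd-B, and Or45b and Or59a in Hth.

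The regions near members fell into 96 separate stretches of the genome when those of the 12 lines were merged. Of these 33 were clear of other genes, 42 belonged to a single line and 3 to all 12 lines. Single-line stretches were most frequent in Gcm with 21, followed by Abd-B+Hth with 8, Abd-B with 5 and Dfd and Hth with 4 each. Stretches were not counted for the comparison genes. Counted by gene, the 416 comparison genes with a single line had the same leading lines, with 59.1% in Gcm, 14.9% in Abd-B+Hth and 11.8% in Abd-B. Of the clear stretches, 13 were present in Gcm, 8 each in Dfd, Dfd+Gcm, Abd-B and Abd-B+Hth, and 2 each in Ubx and Ubx+Hth. Those found only in Gcm numbered 9, among them the ones at Or7a, Or69a, Gr22f and Gr36b. In reach of more than 1 member were 7 stretches.

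Coverage was then read at each distance from the gene start. Averaged over the 12 lines, a region covered the annotated 5′ end of 1.89% of the members (lowest line 0, highest 4.20%) and of 26.4% of the comparison genes (7.27% to 49.7%). At 500 bp upstream the values were 3.50% and 13.6%, and at 500 bp inside the gene 0.280% and 5.79%. At 3000 bp upstream they were close, at 6.44% and 7.27%. The annotation itself differs here, since 37 members (31.1%) but 97.1% of the comparison genes have an annotated 5′ UTR, and without one the annotated start is the start codon. Over the 163 comparison genes with no annotated 5′ UTR the share at the start was 2.71%. The 1.89% of the members is over all of them, the 37 with an annotated 5′ UTR included. Coverage by distance was not counted for the members with none alone, so these 2 shares are not a like comparison.

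**Figure D3:**
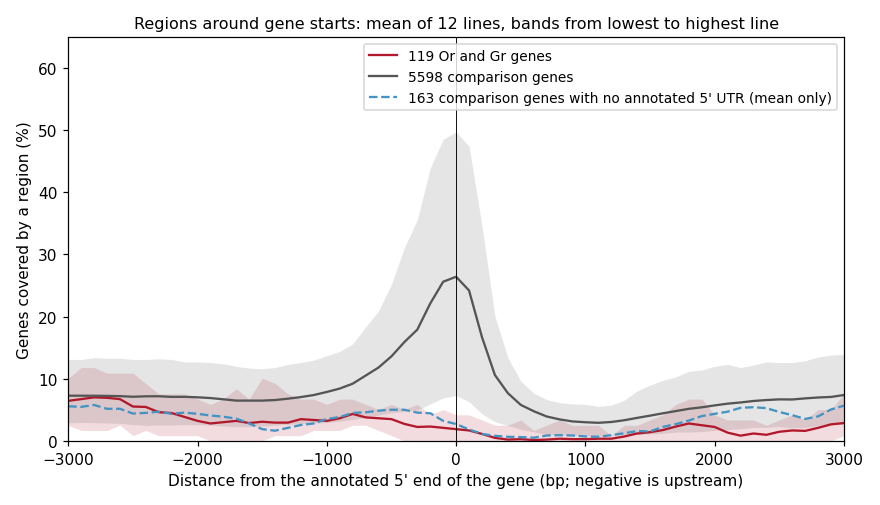
Share of genes covered by a region (y axis, %) at each distance from the annotated 5′ end (x axis, bp, in steps of 100), as the mean of the 12 lines at q 1e-2 with bands from the lowest to the highest line. The grey line (5598 comparison genes) peaks at 26.4% at the start, while the red line (119 members) is at 1.89% there and the dashed line (163 comparison genes with no annotated 5′ UTR, mean only) at 2.71%.

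Split by annotation, the members with an annotated 5′ UTR had a region within 2 kb in 22 of 37 cases (59.5%, 42.1 to 75.2) against 86.8% of such comparison genes. In the body it was 10 (27.0%, 13.8 to 44.1) against 69.7%, and at the own start 8 (21.6%, 9.83 to 38.2) against 67.4%. Members with none had a region within 2 kb in 44 of 82 cases (53.7%, 42.3 to 64.7) against 64.4%, in the body in 13 (15.9%, 8.72 to 25.6) against 25.8%, and at the own start in 14 (17.1%, 9.66 to 27.0) against 25.2%. With and without an annotated 5′ UTR, the share of members within 2 kb was the lower one in 12 of 12 lines. The interval of the members covers the value of the comparison genes within 2 kb and at the start in genes with no annotated 5′ UTR, and it ends just under it in the body. The part of the annotation in the difference was not tested further.

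Neighbours also differed. Of the members, 77 (64.7%) had no transcript start of a gene outside the family within their body and 2 kb. This compares with 21.6% of the comparison genes, for which every other protein-coding gene counted. The 2 rules are not alike, since starts of other members were left out for the members, of which 46 lie within 2 kb of another member. By these rules fewer starts of other genes fell into the members' windows. Among these 77, 37 (48.1%, 36.5 to 59.7) had a region in any line against 72.0% of comparison genes without a neighbouring start. Where the window held such a start, 29 of 42 members (69.0%, 52.9 to 82.4) had a region against 90.0%. In windows without a neighbouring start the share of members was lower in each of the 12 lines, from 2.60% against 17.0% in Ubx+Hth to 23.4% against 42.5% in Gcm. Members nested in a larger gene were 16 (13.4%), against 14.3% of the comparison genes, and 11 of the 16 (68.8%) had a region, against 78.5% of such comparison genes.

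The distance to the nearest region of any line had a median of 1479 bp for the members, so that the 2 kb limit cuts near the middle of their distribution, and of 0 bp for the comparison genes. Just inside the limit, at 1.5 to 2 kb, were 5 members, for example Or1a at 1694 bp and Or94b at 1909 bp. Just outside, at up to 2.5 kb, were 6, for example Gr93c at 2152 bp and Gr43a, the fructose receptor, at 2358 bp. Over 10 kb from any region were 9 of the 119 members and 128 of the 5598 comparison genes.

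Tandem clusters were not bound more often. Within 2 kb of another member lay 46 genes, in 17 clusters of up to 6 genes, and 23 of these 46 (50.0%) had a region, against 43 of the 73 single genes (58.9%). The cluster of 6 sugar receptor genes, Gr64a to Gr64f, had a region near its ends only, with Gr64a in Dfd, Abd-B and Abd-B+Hth and Gr64f in Gcm, each overlapping another gene. By arm, the share with a region was 40.7% on 2L, 67.9% on 2R, 50.0% on 3L and 3R and 78.6% on X, and on each of the 5 arms it was under that of the comparison genes of the arm (84.9% to 88.2%).

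By sensory role, every group held both genes with and genes without a region, apart from Gr28b and its neighbour Gr28a, which both had one. The counts stand beside 86.1% of the comparison genes with a region and 68.4% with one in the body. Of 9 sugar and fructose receptors, 4 had a region (Gr5a, Gr61a, Gr64a and Gr64f), and in the body only Gr61a did. Gr63a but not Gr21a of the carbon dioxide pair had one. Of 12 receptors of bitter neurons 8 did, among them Gr66a, Gr32a, Gr93a and Gr47a, a strychnine receptor, with Gr39a the 1 with a region in the body. Trichoid and pheromone odorant receptors had 8 of 12, including Or67d, the receptor for cis-vaccenyl acetate, and Or83c, a farnesol receptor. A list of antennal receptors, mainly basiconic, had 11 of 22, with 6 in the body, such as Or7a, Or49b, Or59b and Or82a. Maxillary palp receptors had 4 of 7 and larval odorant receptors 12 of 23.

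Other chemosensory families were counted in the same way. The Ir genes, ionotropic receptors of other olfactory and taste neurons, had a region in 33 of 60 cases (55.0%), 13 in the body, and the Obp genes, which encode secreted odorant-binding proteins, in 27 of 51 (52.9%), 9 in the body. Of a list of 20 further genes of chemosensory neurons, 17 had a region. They include Orco, the co-receptor of all Or proteins, and the neuronal transcription factor genes acj6 and pdm3. This list shares Ir8a, Ir25a, Ir93a, Ir21a and Ir76b with the Ir genes, and Ir21a and Ir76b had no region. None of these lists was matched on length, with medians of 1908 bp for the Ir genes, 788 bp for the Obp genes and 4338 bp for the last.

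Calls of single members also differed between a Hox protein alone and with a cofactor. A member was counted as gained when it had a region in the line with the cofactor and none with the Hox protein alone, and as lost in the reverse case. With Hth, Dfd gained 2 members, Gr57a and Or82a, against 3.80% of the comparison genes, and lost 10 (8.40%) against 9.43%. Both gained members passed q 1e-10 in Dfd+Hth, as did 69 of the comparison genes gained. Ubx with Hth, the pair with equal induction, gained 2, the adjacent Gr59a and Gr59b, against 4.02%, and lost 7 (5.88%) against 16.8%, with 4 members in both. Abd-B with Hth gained 7 (5.88%) against 3.43% and lost 6 (5.04%) against 2.91%, and the 7 gained are the 7 single-line members named above.

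With Gcm, Dfd gained 2 members, Gr57a and Or67d, against 3.13%, and lost 9 (7.56%) against 6.40%. Ubx with Gcm gained 13 members (10.9%) against 23.9% and lost none against 0.589%, where the line with Gcm had 8827 regions and that without it 5278. The 13 were Or45a, Or46a, Gr47b, Gr59a, Gr59e, Gr59f, Gr61a, Gr66a, Gr89a, Gr2a, Or9a, Or10a and Gr10a. Among them Or10a and Gr10a share 1 region, as do Gr59e and Gr59f. A Ubx+Gcm region that overlapped one of the Gcm line was found for 6 of the 13, Or10a and Gr10a included (46.2%, against 41.9% of the comparison genes gained). Among the 11 members with a region in both lines 7 had such an overlap (63.6% against 64.1%). Of the 13, Gr47b passed q 1e-10, as did 142 of the 1340 comparison genes gained.

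With both cofactors, Dfd gained 2 members, again Gr57a and Or82a, against 3.07%, and lost 15 (12.6%) against 16.4%. Ubx gained 10 (8.40%) against 15.5%, of which Gr59a and Gr59b again share 1 region, and lost 1, Gr28a, against 3.32%. Gr39a, which has a role in male courtship, was among the 10 and was the 1 that passed q 1e-10, as did 198 of the 865 comparison genes gained. In Ubx+Hth+Gcm, 4 of the 10 gained members (40.0%) had a region that overlapped one of Hth or Gcm expressed alone, against 77.1% of the comparison genes gained, and in Dfd+Gcm 1 of 2 did, against 48.0%. No gained member did so in Dfd+Hth (0 of 2, against 34.3%) or Ubx+Hth (0 of 2, which share 1 region, against 71.6%). The same held in Abd-B+Hth (0 of 7, against 10.4%) and Dfd+Hth+Gcm (0 of 2, against 44.2%). These pairs share the Hox-alone list, the lists are thresholded, and a change of call is not a measured change in binding.

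**Figure D4:**
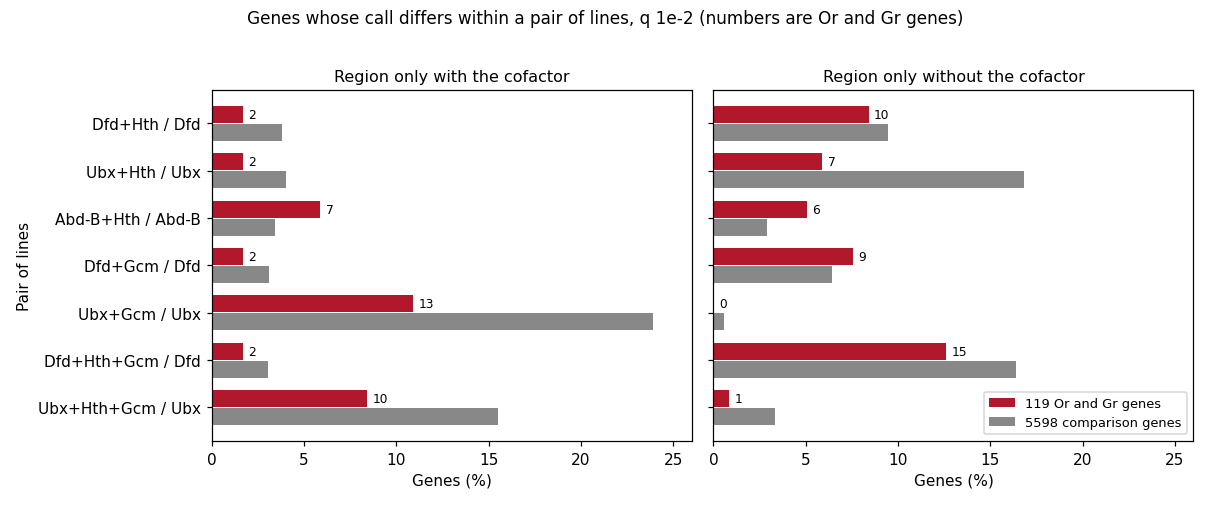
Share of genes (x axis, %) with a region only in the line with the cofactor (left) or only in the line without it (right), for 7 pairs of lines (y axis) at q 1e-2. Red bars are the 119 Or and Gr genes with their number beside the bar, and grey bars the 5598 comparison genes. The longest red bar on the left is Ubx+Gcm with 13 genes, at 10.9% against 23.9%, and on the right Dfd+Hth+Gcm with 15 genes, at 12.6% against 16.4%.

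Longer sites were searched in the regions themselves. Over all lines, any of the 3 octamers occurred in the central 200 bp of 27 of 320 regions near members (8.44%, 5.63 to 12), against 7.39% of all regions of the same lists, cut to the same length. These 27 regions belonged to 9 genes, 10 to Gr97a, 5 to Or2a, a trichoid receptor, 3 to Gr93d, 2 each to Or82a, Gr57a and Or45a, and 1 each to Or67d, Or59b and Gr63a. Those of Gr97a, Or2a, Or45a, Or59b and Gr63a overlapped another gene or lay near its start. In Dfd+Hth+Gcm the octamers were in 6 of 25 regions (24.0%, 9.36 to 45.1) against 14.3%, and in Dfd+Hth 3 of 26 (11.5%, 2.45 to 30.2) against 12.6%. The Gcm site occurred in 10 of 36 Gcm regions near members (27.8%, 14.2 to 45.2) against 23.6%. Over all lines it occurred in 23 of 320 regions (7.19%, 4.61 to 10.6) against 3.91% of all regions. Among these 23, the Gr63a region is counted in Dfd, Dfd+Hth and Dfd+Gcm, for example. Regions shared by several lines are counted in each, so that these intervals are too narrow.

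The same letters were counted in the members' windows, the body and 2 kb on either side. At least 1 octamer was found in 72.3% of the members' windows and 67.6% of those of the comparison genes, and at least 1 Gcm site in 26.9% and 31.7%. Of the 32 members with a Gcm site in the window, 17 (53.1%) had a region in the Gcm line, against 77.8% of the comparison genes with a site. Of the 87 without it, 17 (19.5%) had one, against 44.3%. The median GC content was 42.5% in the members' windows and 44.9% in those of the comparison genes. Sequence that occurs once in the chromosome arms filled over 90% of the window in all but 8 members, which include the near-identical pair Or19a and Or19b, whose bodies were 16.7% unique as 32-base words. The authors kept only reads with a single match in the genome, so that few reads of that pair could be counted. Or82a was also among the 8, with 65.7% of its window unique but 100% of its body. Reads from the rest of its window could therefore be missed in any line.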

How the data were processed

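Regions bound by eGFP-tagged proteins were taken from the authors' lists for 12 lines, in 6 deposited tables. Per the submitters' processing notes and the methods, reads with a single match in dm6 were kept by Bowtie 1.2.2, duplicates were dropped, and MACS2 2.1.1.20160309 found peaks per replicate over the input at q 1e-2 and q 1e-10. The authors removed regions on exons carried by the plasmid and took the union of overlapping regions of the 2 replicates. The deposited values are start and end positions, and every score is 0. All 3 copies of the list for Hth were the same.

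Genes came from Ensembl release 115 and sequence from Release 6 of the genome, the same build, and no region ended beyond its arm. Windows of 2 kb, the comparison genes, octamers and Gcm site are defined in the report. Shares carry 95% exact binomial intervals for counting error over genes or regions, and neighbouring genes can share a region. The lists hold no counts, so that depth sets no interval and no test over libraries was possible. Clusters are members within 2 kb of each other. Stretches are merged overlapping regions. Uniqueness is the share of 32-base words that occur once in the chromosome arms, on either strand, and is a stand-in, since the read length is not given in the sources used here.

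Members, gene lists and comparisons were chosen with earlier results of these data known. Genes are named if they have a region at q 1e-10 in at least 1 line, in all 12 lines or in 1 line only, hold one of the 10 widest regions, lie near the 2 kb limit (up to 4) or belong to a sensory list (up to 4 a list). Other members appear where a count of 5 or fewer, or a pair of lines, calls for the name. Sequences are those of 6 clear regions off arm 2R, in order of the number of lines and then of width, and those of Or82a, Gr36b and the Hth line at Gr93d were added after their sequence was seen, as were the splits by 5′ UTR, neighbouring start and unique sequence.

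Overlaps used Python 3.11.15, numpy 2.4.6 and, for intervals, scipy 1.17.1, and were tested on simulated data with planted regions. Figures used matplotlib 3.10.9. bedtools 2.31.1 gave the same members in 12 of 12 lines.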

Additional observations from a re-analysis of the deposited data

How the results depend on the processing

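The share of members with a region stayed below that of the comparison genes in 12 of 12 lines under each alternative for which it was counted (list threshold, window, comparison genes, clusters, arms, unique sequence, neighbouring starts and annotated 5′ UTR). The shares themselves followed the lists and the window. The members with a region in any line were 38.7% at q 1e-10 (comparison genes 74.7%), 92.4% with 10 kb on either side (97.7%) and 19.3% in the body alone (68.4%), and 52.1% by region centre, where the comparison genes had 84.7%. The median over lines was 8.82% (28.6%), 56.7% (83.5%) and 4.20% (33.2%) under the first 3 of these, and for the comparison genes 53.1% by region centre. With length classes the comparison genes had 83.8% in any line, 52.7% as the median over lines, 64.6% in the body and 35.9% clear of other genes, and with all other protein-coding genes 84.6% in any line and 47.8% clear of other genes. Members with a region in the body were 10.9% at q 1e-10 and 12.6% by region centre, and members with a clear region 13.4% at q 1e-10 and 51.3% with 10 kb. Members gained with a cofactor, 38 over the 7 pairs, were 61 with 10 kb, 16 in the body and 23 without arm 2R. Members lost, 48, were 25 at q 1e-10, 79 with 10 kb and 7 in the body. Octamers were found in 22.5% of whole regions and in 12.4% of regions at q 1e-10. Chosen after seeing the data, windows with no neighbouring start gave 72.0% for the comparison genes, genes with an annotated 5′ UTR 69.7% in the body, and those with none 25.8% in the body and 64.4% within 2 kb. Of 116 alternative values, 80 stayed inside the main share's 95% interval or, for counts, within 1.5 times of the main count, and 36 did not. The cause of the shifts was not tested, beyond fewer regions in the stricter lists and more or less sequence in the other windows.

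No paired analysis was possible because every list already joins both libraries of its line. Nor was any result computed without one replicate. Precision is limited by the number of genes and by lists without depth, so that a gene with no region is not shown to be unbound.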
